A study of Mus musculus with 9 samples.

Results

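Gastrocnemius, a calf muscle, of 9 mice of 6 genotypes was read, each mouse on 1 Affymetrix U74Av2 array. Of 8251 genes named on the array, the expression of 6 myogenic factor and muscle precursor genes was followed. They are the myogenic transcription factors Myog, Myod1 and Myf6, the transcription factor Mef2c, the adhesion protein M-cadherin (Cdh15) and the neural cell adhesion molecule (Ncam1). Every probe set that the platform annotation gives to 1 of these symbols was taken, which gave 12 probe sets for the 6 genes, of 12422 probe sets that are not controls. A filter on dim probe sets kept those above the 40th percentile of the mean level, and 10 of the 12 passed, with at least 1 for each gene. The genes were taken as a named set, with earlier results of these data known.

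There were 2 mice each of the wild-type, mdx and hDMD mdx genotypes, and 1 each that was hDMD, mdx utrn-/- or hDMD mdx utrn-/-. The mdx allele is a mutation of the mouse Dmd gene, mice labelled hDMD carry the human dystrophin gene at full length, and utrn-/- mice lack utrophin, a protein related to dystrophin. The wild-type mice had a mixed C57Bl/DBA2/129OLA-Ev background; for the other genotypes no source used here states the strain. The youngest mouse was mdx utrn-/- at 5 weeks and the oldest hDMD mdx 1 at 24 weeks. Wild-type mice were 7, hDMD mdx utrn-/- 9, hDMD mdx 2 10 and hDMD 11 weeks old, while mdx 1 was 15 and mdx 2 was 13 weeks old. Wild-type 1 was female and the other mice were male. Age and genotype cannot be told apart where a genotype has 1 mouse, or where all of its mice are older or younger than those it is compared with. The 3 arrays without full-length dystrophin (mdx and mdx utrn-/-) are called lacking, and the 6 others carrying.

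Myod1, Myog and Myf6 are basic helix-loop-helix proteins that bind E-boxes in the control regions of muscle genes, together with E proteins such as Tcf3 and Tcf12. In muscle repair, satellite cells become myoblasts that express Myod1, Myog follows as they leave the cell cycle and fuse, and Myf6 is the member of the family that is most abundant in mature fibres. Mef2c binds an AT-rich site and acts with these factors. M-cadherin joins satellite cells to fibres and myoblasts to each other, and Ncam1 is present on satellite cells, new and denervated fibres, nerve endings and Schwann cells.

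The Myog promoter window holds matches to the motifs of both factor classes, and it is shown here because Myog had the largest difference between the dystrophin classes of the 10 kept probe sets. RefSeq promoter windows of 300 bases, from 250 before to 50 after a start, were found for 3 of the 6 genes (Myog, Mef2c and Cdh15). The motifs searched on both strands were CANNTG, the E-box, and CTANNNNTA, which matches the core of many MEF2 sites. Capitals mark the matches in the windows of Myog (GRCm38.p6, chr1:134289754-134290053, plus strand) and Cdh15 (GRCm38.p6, chr8:122848124-122848423, plus strand), 5′ to 3′.
Myog: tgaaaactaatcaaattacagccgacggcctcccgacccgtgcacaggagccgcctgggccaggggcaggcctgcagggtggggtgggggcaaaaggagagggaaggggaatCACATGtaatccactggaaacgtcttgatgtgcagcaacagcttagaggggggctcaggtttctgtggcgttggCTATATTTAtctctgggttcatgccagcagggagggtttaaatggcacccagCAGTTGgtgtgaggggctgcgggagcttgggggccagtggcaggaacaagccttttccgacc
Cdh15: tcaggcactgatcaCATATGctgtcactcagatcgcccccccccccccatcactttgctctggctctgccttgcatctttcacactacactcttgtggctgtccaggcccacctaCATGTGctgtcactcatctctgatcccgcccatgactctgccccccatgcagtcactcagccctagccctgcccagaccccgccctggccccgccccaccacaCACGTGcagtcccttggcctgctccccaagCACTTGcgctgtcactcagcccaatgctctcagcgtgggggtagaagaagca
In Myog the E-boxes began at -138 and -12 relative to the start and the MEF2-like match at -64. Cdh15 held 4 E-boxes, beginning at -236, -135, -32 and -2, and no MEF2-like match. Of the 3 windows of Mef2c, 1 held 2 E-boxes, 1 held none, and 1 held an E-box and a MEF2-like match. That match, CTAACGATA, held C and G among its free bases and so was not AT-rich there, whereas CTATATTTA in Myog held only A and T. Among 32851 windows of 27025 genes, 72.3% held an E-box, 6.49% held 4 or more, 21% held the MEF2-like motif and 15.7% held both. The 2 motifs did not overlap in these windows. The matches describe letters and not sites of binding.

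Values are deposited intensities that were quantile normalised between arrays and put on the log2(intensity + 16) scale, where 4 is the floor. Differences on it understate the change of dim probe sets. By their spike-in controls, the arrays of mdx 2, wild-type 1 and hDMD mdx 1 were bright and the other 6 dim, at a ratio of medians of 6.18. The 3′ to 5′ ratio of actin, a sign of RNA integrity, ran from 1.2 to 1.87 in bright arrays and from 0.669 to 0.908 in dim ones. For this reason many of the differences are also given for bright arrays alone and dim arrays alone. All 13 of 13 muscle fibre identity genes, such as Mb (myoglobin) and Ckm (muscle creatine kinase), were kept, and their summed normalised intensity was 24900 to 26700 in lacking and 25200 to 28700 in carrying arrays.

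**Figure D1:**
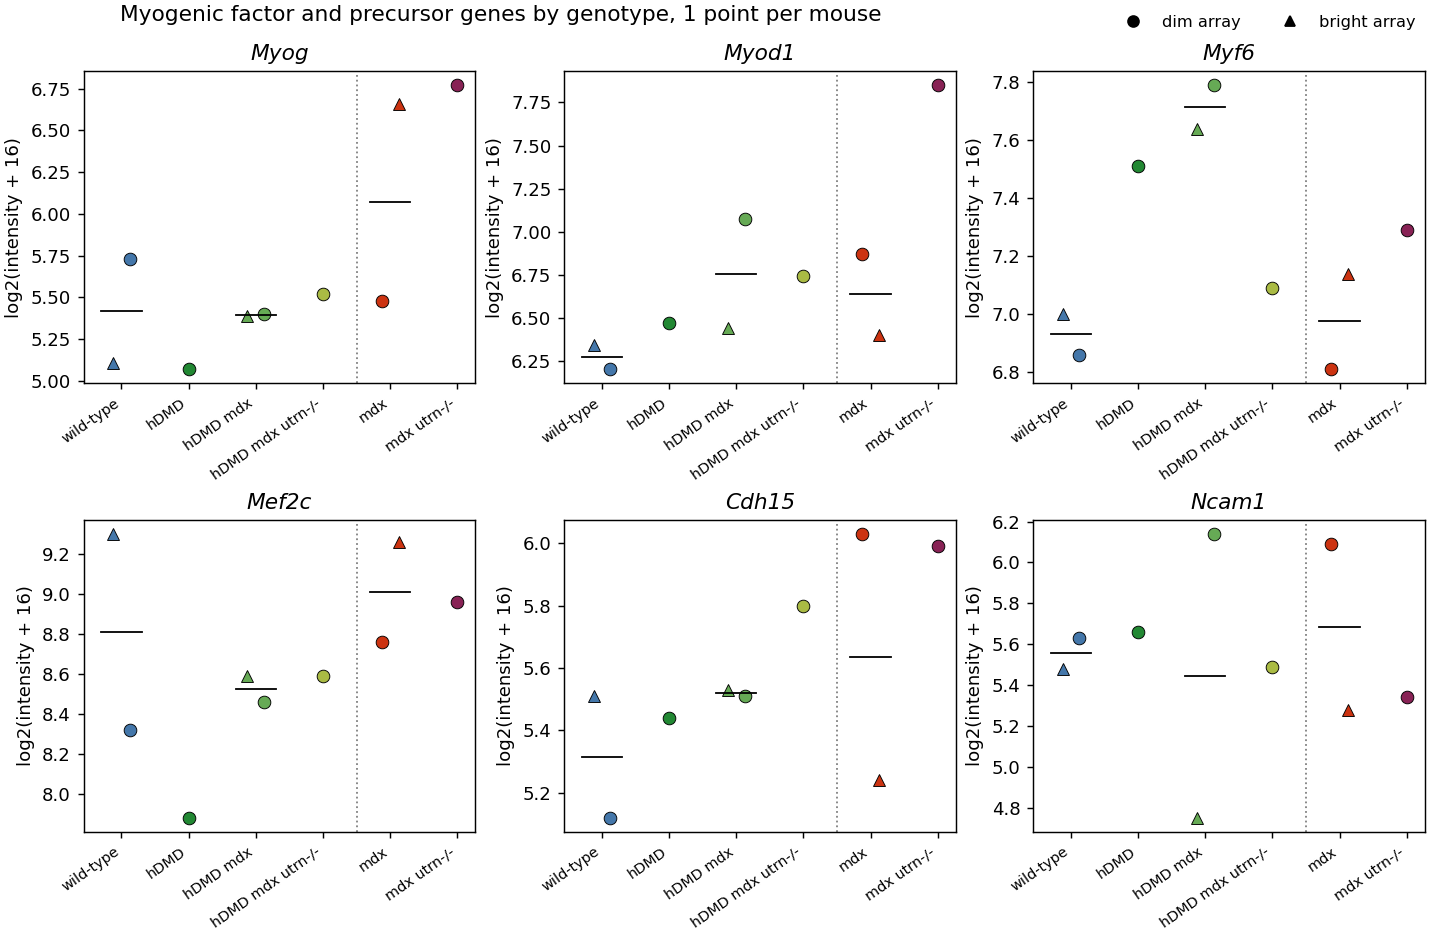
Normalised level, log2(intensity + 16), of the highest probe set by mean of each gene in each mouse, by genotype. Triangles are bright and circles dim arrays, short lines are means of genotypes with 2 mice, and the dotted line separates carrying (left) from lacking genotypes. Myog was highest in mdx utrn-/- at 6.77 and mdx 2 at 6.66, and Myf6 in the hDMD mdx and hDMD mice at 7.51 to 7.79.

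Myog (Entrez gene 17928), myogenin, which drives the differentiation of myoblasts, was at 5.48 in mdx 1, 6.66 in mdx 2 and 6.77 in mdx utrn-/-. In the 6 carrying arrays it ranged from 5.07 in hDMD to 5.73 in wild-type 2, with a median of 5.39. Both mdx 2 and mdx utrn-/- lay above every carrying array, whereas mdx 1 lay among them. The levels of the 7 lowest arrays spanned less than the distance between the mdx mice.

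Myod1 (Entrez 17927), which commits cells to the muscle lineage, was at 6.87 in mdx 1, 6.40 in mdx 2 and 7.85 in mdx utrn-/-. Carrying arrays ranged from 6.20 in wild-type 2 to 7.07 in hDMD mdx 2, with a median of 6.46. One mouse, mdx utrn-/-, stood above the rest, and the mdx mice lay within the range of the carrying arrays. The mouse with the highest Myog and Myod1 was also the youngest, at 5 weeks.

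Myf6 (Entrez 17878), also called MRF4, the factor of mature fibres, had a different order. It was at 7.51 in hDMD, 7.64 and 7.79 in the hDMD mdx mice and 7.09 in hDMD mdx utrn-/-. Without the human gene it was at 7.00 and 6.86 in wild-type 1 and 2, 6.81 and 7.14 in mdx 1 and 2, and 7.29 in mdx utrn-/-. The 3 carriers of the human gene with utrophin lay above all 5 mice without the human gene, a pattern noticed after the values were seen. It was shared by 143 of 7453 kept probe sets (1.92%). The carrier without utrophin lay among the mice without the human gene.

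Mef2c (Entrez 17260), a MADS-box factor of differentiating muscle, was read by 4 probe sets, all kept. The one with the highest mean, 104592_i_at, was at 8.76, 9.26 and 8.96 in mdx 1, mdx 2 and mdx utrn-/-. It ranged from 7.88 in hDMD to 9.30 in wild-type 1 in the carrying arrays, with a median of 8.52. The 3 lacking arrays lay above 5 of the 6 carrying ones, and wild-type 1 above all.

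The other probe sets of Mef2c, 104590_at, 104591_g_at and 97357_at, ranged over all 9 arrays from 7.07 to 8.64, from 6.53 to 7.60 and from 5.26 to 6.88. In each of them at least 1 carrying array lay within the range of the lacking arrays. Across the 9 arrays Pearson's r between 104590_at and 104592_i_at was 0.93, and 0.76 between 104591_g_at and 104592_i_at. The likeness of 97357_at to the others was lower, with r of 0.57, 0.05 and 0.49 to 104590_at, 104591_g_at and 104592_i_at. After centring on the means of bright and dim arrays its r to 104592_i_at was 0.09. These points share arrays and normalisation, and r is given as a description. The means of 97357_at were 6.79 in the bright and 5.96 in the dim arrays, against 7.19 and 7.16 for 104591_g_at.

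**Figure D2:**
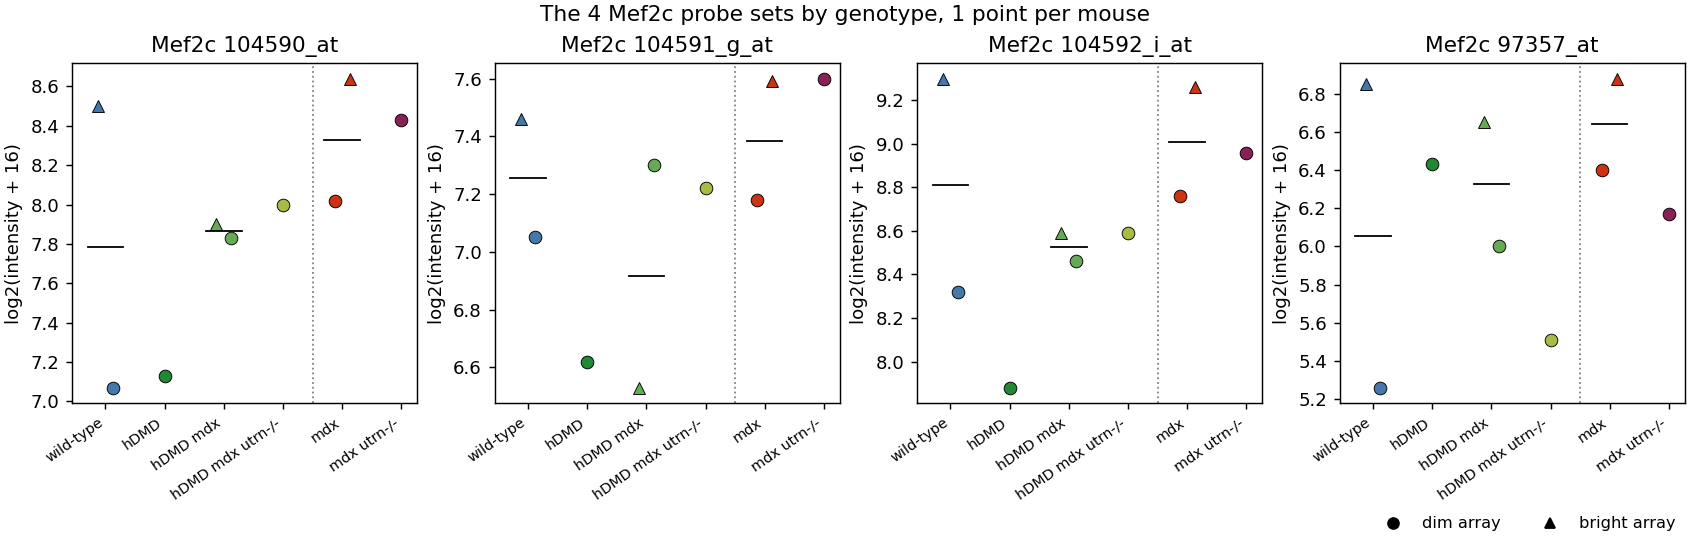
Normalised level, log2(intensity + 16), of the 4 Mef2c probe sets in each mouse, by genotype, with triangles for bright and circles for dim arrays. Short lines are means of genotypes with 2 mice and the dotted line separates carrying from lacking genotypes. The 2 highest arrays for 104592_i_at were wild-type 1 at 9.30 and mdx 2 at 9.26.

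Cdh15 (Entrez 12555), M-cadherin, had 1 kept probe set, 103213_at, at 6.03 in mdx 1, 5.24 in mdx 2 and 5.99 in mdx utrn-/-. The carrying arrays ranged from 5.12 in wild-type 2 to 5.80 in hDMD mdx utrn-/-, with a median of 5.51. Lacking arrays (mdx 1 and mdx utrn-/-) were the highest of the 9, and mdx 2 was next to the lowest. The other probe set, 161366_r_at, lay between 4 and 4.23, with 3 arrays at the floor, and was not kept.

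Ncam1 (Entrez 17967) was read by 3 probe sets. The one with the highest mean, 100153_at, was at 6.09 in mdx 1, 5.28 in mdx 2 and 5.34 in mdx utrn-/-, and at 4.75 to 6.14 in the carrying arrays, with a median of 5.56. Both ends of that range were hDMD mdx mice, so the spread within that genotype exceeded every difference between genotypes. The probe set 161750_f_at, whose suffix marks probes shared with related sequences, lay between 4 and 4.88, and 100152_at, which was not kept, between 4 and 4.39. Between the 2 kept Ncam1 probe sets r was -0.41 over 9 arrays.

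The first comparison asked whether the genes followed full-length dystrophin, mouse or human, and set the 3 lacking against the 6 carrying arrays. Myog had the largest difference of the members, 0.94 ± 0.30 (SE), from 5.37 ± 0.25 (SD, n = 6) to 6.31 ± 0.72 (SD, n = 3). Its 95% interval was 0.28 to 1.59, with 1.41 in bright arrays alone and 0.70 in dim arrays alone. Limma gave an adjusted p of 0.667, and 0.325 with brightness as a block, so Myog did not pass. The 4 Mef2c probe sets differed by 0.62 ± 0.33 (104590_at), 0.47 ± 0.29 (104592_i_at), 0.43 ± 0.26 (104591_g_at) and 0.37 ± 0.36 (97357_at). In the same order they were 0.44, 0.31, 0.59 and 0.13 for bright and 0.72, 0.55, 0.34 and 0.48 for dim arrays. Their limma adjusted p values were 0.986 to 0.999.

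Myod1 differed by 0.50 ± 0.32 between the dystrophin classes, at 0.01 for bright and 0.74 for dim arrays. Without mdx utrn-/- it was 0.09. Cdh15 differed by 0.27 ± 0.24, at -0.28 for bright and 0.54 for dim arrays. Ncam1 differed by 0.04 ± 0.31 on 100153_at, with an interval of -0.63 to 0.71, and by -0.06 ± 0.25 on 161750_f_at. Myf6 was the other member with a lower mean without dystrophin, at -0.23 ± 0.26, and its sign turned to 0.15 ± 0.30 with the human gene as a covariate.

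Of the 10 kept probe sets, 0 passed in limma at an adjusted p of 0.05, against 9 of 7453 (0.121%) in the whole table. Myog alone had an unadjusted p under 0.05, at 0.0091, as did 5.58% of all kept probe sets. Differences were above 0 in 8 of the 10, with a median of 0.40, against 48.2% and a median of -0.01 over all kept probe sets. The 4 Mef2c probe sets read 1 gene and are not independent. No member separated the classes without overlap, as 1.52% of kept probe sets did with higher and 1.42% with lower values.

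**Figure D3:**
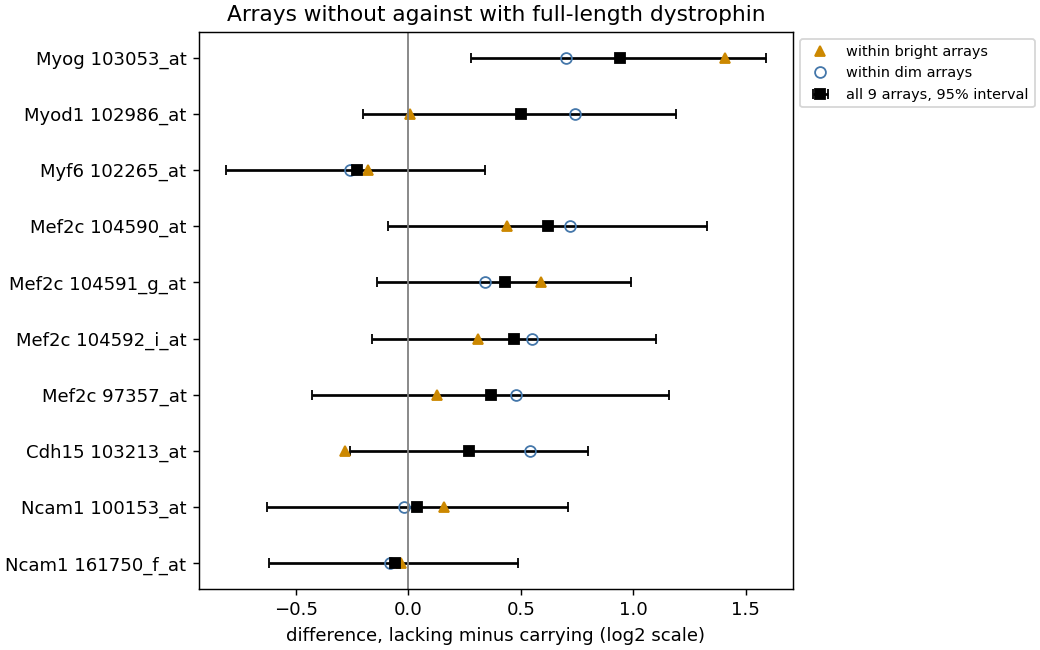
Difference between lacking and carrying arrays, on the log2 scale, for the 10 kept probe sets. Squares with bars are all 9 arrays with the 95% interval of limma, triangles the difference within bright and circles within dim arrays. The interval of Myog, 0.28 to 1.59, lay above 0, and those of the other 9 included it.

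Loss of mouse dystrophin was examined by setting mdx against wild-type (n = 2 each). Myog differed by 0.65 ± 0.47, but by 1.55 for bright and -0.25 for dim arrays, so its sign differed between the pairs. Without mdx 2 the difference was 0.06. Myod1 differed by 0.36 ± 0.38, and both mdx mice lay above both wild-type mice, as in 11.2% of kept probe sets. It was at 0.06 for bright and 0.67 for dim arrays, and at 0.13 without mdx 1 and 0.60 without mdx 2. Mef2c (104592_i_at) differed by 0.20 ± 0.43, at -0.04 for bright and 0.44 for dim arrays. Its other probe sets differed by 0.54 ± 0.52 (104590_at), 0.13 ± 0.40 (104591_g_at) and 0.59 ± 0.57 (97357_at). Cdh15 differed by 0.33 ± 0.39, at -0.26 for bright and 0.92 for dim arrays. Myf6 differed by 0.04 ± 0.33 with an interval of -0.73 to 0.82, and Ncam1 (100153_at) by 0.13 ± 0.53. Limma called 0 of the 10 member probe sets and 0 of 7453 (0%), with 0 members at an unadjusted p under 0.05, against 1.74% of kept probe sets.

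The human gene on the mdx background was examined by setting hDMD mdx against mdx (n = 2 each). Myf6 differed by 0.74 ± 0.33, from 6.97 ± 0.23 (SD, n = 2) in mdx to 7.72 ± 0.11 (SD, n = 2) in hDMD mdx. It was higher in bright (0.50) and in dim arrays (0.98), with an adjusted p of 1 in limma and 0.591 with brightness as a block. Its interval was -0.03 to 1.52. Both hDMD mdx mice lay above both mdx mice, as in 13.9% of kept probe sets.

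Myog differed by -0.68 ± 0.47 in hDMD mdx against mdx, at -1.28 for bright and -0.08 for dim arrays. The hDMD mdx mice were at 5.39 and 5.40, below both mdx mice, and the difference was -0.09 without mdx 2. Mef2c differed by -0.49 ± 0.43 (104592_i_at) and -0.46 ± 0.52 (104590_at), also with no overlap, where 13.1% of kept probe sets were lower without overlap. The arrays overlapped on its other probe sets. On 104591_g_at the difference was -0.47 ± 0.40, at -1.06 for bright and 0.12 for dim arrays, and on 97357_at it was -0.32 ± 0.57. Myod1, Cdh15 and Ncam1 (100153_at) differed by 0.12 ± 0.38, -0.12 ± 0.39 and -0.24 ± 0.53, and Cdh15 was at 0.29 for bright and -0.53 for dim arrays. Limma called 0 of the 10 member probe sets and 0 of 7453 (0%), with 0 members at an unadjusted p under 0.05, against 2.88% of kept probe sets. The comparisons of mdx with wild-type and of hDMD mdx with mdx share the mdx mice.

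With the utrophin-deficient pair added and utrophin genotype as an additive term, 3 carriers of the human gene were set against 3 mice without it on deficient backgrounds. Myog differed by -0.87 ± 0.37, from 6.31 ± 0.72 (SD, n = 3) to 5.44 ± 0.08 (SD, n = 3), at -1.28 for bright and -0.67 for dim arrays. The carriers lay between 5.39 and 5.52, and mdx 1, at 5.48, lay among them. The adjusted p was 0.908 in limma, and 0.410 with brightness as a block. Mef2c differed by -0.45 ± 0.28 (104592_i_at) and -0.45 ± 0.29 (104590_at), both without overlap, where 5.3% of kept probe sets were lower in that way. The arrays overlapped on 104591_g_at, at -0.44 ± 0.31, and on 97357_at, at -0.43 ± 0.31. Myf6 differed by 0.43 ± 0.31, Myod1 by -0.29 ± 0.37, Cdh15 by -0.14 ± 0.30 and Ncam1 (100153_at) by -0.11 ± 0.43. Limma called 0 of the 10 member probe sets and 0 of 7453 (0%), with Myog at an unadjusted p of 0.0487, while 5.49% of kept probe sets had one under 0.05.

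In the single utrophin-deficient pair, which has no replicate and no test, hDMD mdx utrn-/- against mdx utrn-/- was at 5.52 against 6.77 for Myog and at 6.74 against 7.85 for Myod1. Mef2c (104592_i_at) was at 8.59 against 8.96, Cdh15 at 5.80 against 5.99 and Ncam1 (100153_at) at 5.49 against 5.34. Myf6, at 7.09 against 7.29, was lower with the human gene, whereas it was higher with it in the mice that had utrophin. That difference between the utrophin genotypes was -0.95 ± 0.57 for Myf6 and -1.23 ± 0.65 for Myod1, each with an adjusted p of 1 in limma. Over this contrast limma called 0 of the 10 member probe sets, 0 of them with an unadjusted p under 0.05 (3.84% of all), and 0 of 7453 (0%).

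Against wild-type, hDMD mdx mice had higher Myf6, by 0.78 ± 0.33, at 0.63 for bright and 0.93 for dim arrays. Its unadjusted p was 0.0485 and its adjusted p 1 in limma, and 0.832% of kept probe sets had an unadjusted p under 0.05. Myod1 differed by 0.48 ± 0.38, with 0.11 for bright and 0.86 for dim arrays. Both genes separated the genotypes without overlap, as did 10.5% of kept probe sets. The Mef2c probe sets differed in sign, at 0.08 ± 0.52 (104590_at), -0.35 ± 0.40 (104591_g_at), -0.29 ± 0.43 (104592_i_at) and 0.27 ± 0.57 (97357_at). The same hDMD mdx mice were set against mdx above, so the Myf6 differences from wild-type and from mdx are not independent. The hDMD mouse, which has its own mouse dystrophin, differed from wild-type by 0.57 ± 0.40 for Myf6, and by 0.64 for dim arrays. The sign turned to -0.69 in the deposited values without normalisation. There the dim hDMD array, at 42.7, was set against 182 in the bright wild-type 1 and 29 in the dim wild-type 2. Limma called 0 of the 10 member probe sets and 0 of 7453 (0%) in either comparison. In hDMD against wild-type 0 members had an unadjusted p under 0.05, against 1.82% of kept probe sets.

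Loss of utrophin on the mdx background was examined with 1 mdx utrn-/- mouse against 2 mdx mice. Myod1 differed by 1.22 ± 0.46, with an interval of 0.13 to 2.30, an unadjusted p of 0.0335 and an adjusted p of 0.976 in limma. Myog differed by 0.70 ± 0.58, by 1.30 against mdx 1 alone and by 0.11 against mdx 2 alone. Against mdx 1 alone, which like mdx utrn-/- was on a dim array, Myod1 differed by 0.98. Without normalisation both signs turned, to -0.11 for Myod1 and -0.71 for Myog. The deposited intensities in mdx utrn-/- were 52.1 for Myod1 and 21.1 for Myog. They were 25.3 and 7.34 in the dim mdx 1, and 115 and 142 in the bright mdx 2. Of all 10 kept member probe sets 0 passed in limma, against 2 of 7453 (0.0268%), and Myod1 alone had an unadjusted p under 0.05, as did 3.84% of all. The mdx utrn-/- mouse was 5 weeks old and the mdx mice 15 and 13 weeks, so age and utrophin cannot be told apart here.

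**Figure D4:**
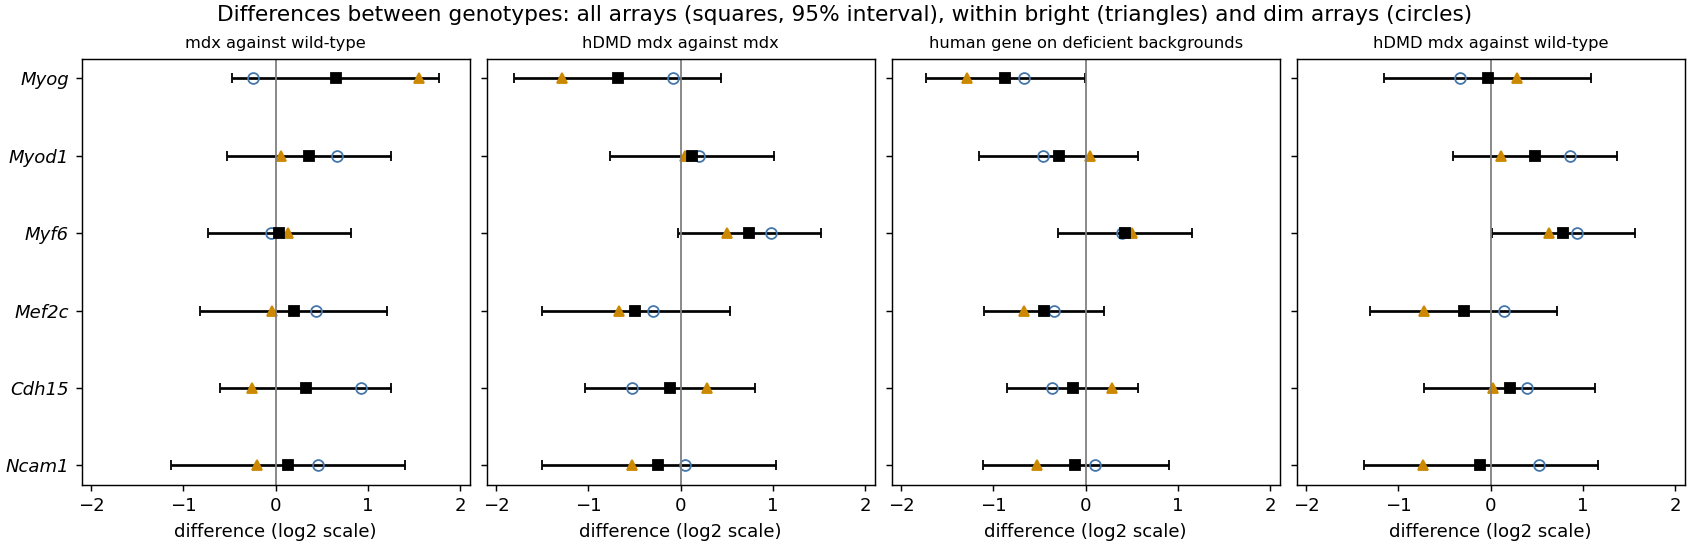
Differences on the log2 scale for the highest kept probe set by mean of each gene in 4 comparisons of genotypes. Squares with bars are the fit over all arrays with its 95% interval, triangles the difference within bright and circles within dim arrays. Myf6 differed by 0.74 in hDMD mdx against mdx and by 0.78 in hDMD mdx against wild-type, and Myog by -0.87 on the deficient backgrounds. Both of these Myf6 differences rest on the same hDMD mdx mice.

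Related genes of the pathway were described from lists, each gene by its highest kept probe set by mean. In the dystrophin class comparison the 15 kept genes of 18 bHLH partners and inhibitors had a median difference of 0.04, with 9 higher, 6 lower and 0 passing. Id2, an inhibitor that sequesters E proteins, differed by 0.92 ± 0.34, and Twist1, another repressor of myogenic factors, by 0.38 ± 0.32. The 15 kept of 25 genes of the MEF2 family and its regulators had a median of -0.01, with 7 higher, 8 lower and 0 passing. Map2k6, a kinase upstream of p38, differed by -0.65 ± 0.25, and Mapk14, p38 alpha, which activates Mef2c, by -0.40 ± 0.23.

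Among satellite cell and upstream factors, 15 of 29 genes were kept, with a median of -0.01, 7 higher, 8 lower and 0 passing in limma. Itga7, the muscle laminin receptor subunit, differed by 1.21 ± 0.57 and Sdc3, a syndecan of satellite cells, by 0.54 ± 0.25. The 16 kept of 21 genes of cell cycle exit and fusion had a median of 0.06, with 10 higher, 6 lower and 0 passing. Cdkn1a, the p21 inhibitor of the cell cycle, differed by 1.67 ± 0.56, and Capn3, a muscle protease, by -0.55 ± 0.21. The 12 kept of 19 cadherin, catenin and adhesion genes had a median of 0.04, with 7 higher, 5 lower and 0 passing. Contactin 1 (Cntn1) differed by -0.40 ± 0.31 and Ctnnb1, beta-catenin, which binds cadherin tails, by -0.18 ± 0.18.

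Genes with E-boxes or MEF2 sites that these factors are known to act on, and genes of the synapse and denervation, had higher medians. Of 32 such targets 31 were kept, with a median of 0.27, 22 higher and 9 lower. Myl4, the embryonic myosin light chain, rose by 2.44 ± 0.26 (adjusted p 0.00344 in limma) and Myh3, embryonic myosin, by 2.24 ± 0.30 (adjusted p 0.0203 in limma), and these 2 were the only ones that passed. Of the 16 denervation and synapse genes 9 were kept, with a median of 0.58, 8 higher, 1 lower and 0 passing. The receptor subunits Chrna1 and Chrng differed by 2.06 ± 0.38 and 1.50 ± 0.31, with adjusted p of 0.104 and 0.199 in limma, and passed with brightness as a block (0.00285 and 0.0392 in limma), under which 0.148% of kept probe sets and 0 of the 10 member probe sets did. Over all kept probe sets the median was -0.01, 48.2% had a difference above 0, and 0.121% passed in limma without the block. The lists were chosen with earlier results of these data known, and these lists share Chrna1, Chrnb1, Chrnd and Chrng.

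Markers of other cells were set beside these values. All 11 kept of 14 macrophage markers had higher means without dystrophin, with a median difference of 1.32. Of all kept probe sets 48.2% had a difference above 0. Sums here cover every listed marker on the array, also those not kept. The summed normalised intensity of the 14 was 950 to 1680 in lacking and 241 to 1150 in carrying arrays. The carrying median was 288. Wild-type 2, at 1150, stood apart from the other carrying arrays, which reached 319, and it had the highest Myog of the carrying arrays. Among the lacking arrays the sum was highest in mdx 1, whose Myog was the lowest of them. Lgals3 and Tyrobp, expressed by macrophages, differed by 2.73 ± 0.62 and 1.57 ± 0.37 (adjusted p of 0.298 and 0.372 in limma). All 10 fibroblast and matrix markers were kept, 9 of them with higher means without dystrophin. In mdx against wild-type 4 of them were higher and 6 lower, with a median of -0.18. Their sums were 3280 to 3960 in lacking and 2030 to 5490 in carrying arrays, where wild-type 2 was again the highest. The matrix genes Postn and Col1a1 differed by 1.14 ± 0.40 and 0.75 ± 0.45. For nerve and Schwann cell markers, 12 of 16 were on the array and 6 kept. Sums over the 12 were 152 to 319 in lacking and 110 to 372 in carrying arrays, and Nefm was at the floor in all arrays. Of the 6 kept, 4 were higher and 2 lower without dystrophin. Their median difference was 0.09, at -0.09 for bright and 0.21 for dim arrays. Egr2 and Sox10, transcription factors of Schwann cells, differed by 0.72 ± 0.54 and 0.52 ± 0.29. The sums of 9 endothelial markers were 577 to 1070 in lacking and 501 to 927 in carrying arrays, and Eng and Tie1 differed by 0.45 ± 0.31 and -0.21 ± 0.37. The sums were highest in mdx 2 and wild-type 1, the arrays with the highest Mef2c on 104592_i_at, both of them bright. The next highest sums did not follow Mef2c. They were 808 in hDMD mdx 1 and 721 in wild-type 2, where 104592_i_at was at 8.59 and 8.32, below every lacking array. Of 12 lymphocyte markers 9 were on the array and 4 kept. Sums over the 9 were 38 to 100 in lacking and 38.8 to 109 in carrying arrays. Cd4 and Ptprc differed by -0.50 ± 0.44 and 0.28 ± 0.27. The 13 fibre identity genes had a median difference of -0.10, with 3 higher and 10 lower. The median was 0 for bright and -0.10 for dim arrays. Of these genes Mb and Ckm differed by -0.70 ± 0.21 and -0.41 ± 0.24 (adjusted p of 0.547 and 0.999 in limma). The part of these cells in the members' values was not tested. In whole muscle, fewer cells of a type and less RNA per cell cannot be told apart.

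The members did not share 1 order of arrays. Over 9 arrays r was 0.48 between Myog and Myod1, -0.15 between Myog and Myf6, 0.23 between Myod1 and Myf6, and 0.48 between Myog and Mef2c (104592_i_at). The highest value between different genes was 0.73, between Myod1 and Cdh15, with Spearman's rho of 0.67, and r was 0.68 after centring on bright and dim means. After that centring Myod1 and Mef2c (104590_at) were higher, at 0.78 against 0.33 before it, and Mef2c (104590_at) and Cdh15 were at 0.70. All points share arrays, genotypes and normalisation.

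Genes with the pattern most like each member were taken by Pearson's r over the 9 arrays, among kept probe sets with 1 symbol. For Myog these were Hoxc6 (r 0.98), Hacd3 (0.89) and Psma4 (0.87). Without mdx utrn-/- and mdx 2, the 2 arrays farthest from the median of Myog, r was 0.80, 0.60 and 0.08, so the likeness of Psma4 rested on those 2 arrays. For Myod1 they were Nup62 (0.97), Pspn (0.94) and Hspbp1 (0.92), and for Myf6 Pcgf5 (0.94), Jak2 (0.86) and Tssc4 (0.86). For Mef2c (104592_i_at) they were Ccdc12 (0.94), Cbx6 (0.92) and Prkar1a (0.91), for Cdh15 Hopx (0.97), Mgll (0.91) and Adam5 (0.88), and for Ncam1 (100153_at) Sncb (0.94), Ssr3 (0.92) and Prrx2 (0.89). For these 15 genes r was at least 0.68 without the 2 farthest arrays. These genes were picked as the highest by r over few arrays, and r is given with no test. Among them Pspn, Sncb and Prrx2 had a lowest level of 4, the floor.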

How the data were processed

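Total RNA of each mouse was labelled with biotin and hybridised to 1 array, per the labels' protocols. The authors deposited probe set intensities on a linear scale, of which 19.4% to 29.9% were at or below 0 in each array. No source used here gives the expression measure, software or scaling. Array medians spread over 1.82 on the log2(value + 16) scale, so intensities of 12422 probe sets were quantile normalised with limma 3.58.1 in R 4.3.3, set to 0 where negative, and put on the log2 scale with a pseudocount of 16. The 66 controls stayed out. Symbols were updated through Entrez identifiers: 10833 probe sets had 1 symbol, 396 several and 1193 none. Genes outside the 6 members are read from their probe set of highest mean. The members are read from all of theirs for the levels, and from all kept ones between the dystrophin classes. In the other comparisons Ncam1, where given, is read from its probe set of highest mean, and Mef2c from that one or from all of its probe sets.

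Limma (lmFit, contrasts.fit, eBayes) was fitted over the 7453 kept probe sets, two-sided, with Benjamini-Hochberg adjustment and a threshold of 0.05, and was checked on simulated arrays. Genotype contrasts used 1 mean per genotype over 9 arrays, so a genotype with 1 mouse is assumed to vary like those with 2. Nothing in the labels beyond separate mice marks replicates, and their small number limits the precision. Probe sets below the filter have levels only. The members and lists were chosen with earlier results of these data known. The text names every member probe set, the genes of each list that passed or else the 2 with the smallest p, and the 3 most alike genes per member.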

Additional observations from a re-analysis of the deposited data

How the results depend on the processing

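In limma, 0 member probe sets passed in any comparison under any of 19 alternatives, and the smallest adjusted p of a member was 0.201. Of 591 recomputed member differences 35 had another sign than reported, and the cause was not tested. As deposited, without normalisation, signs turned for Cdh15 (-0.05) and Ncam1 100153_at (0.00) between the dystrophin classes, for Mef2c 104592_i_at (0.02), Cdh15 (0.55) and Ncam1 (0.03) in hDMD mdx against mdx, and for Cdh15 (0.24) on the deficient backgrounds. They also turned for Myf6 (-0.69) in hDMD against wild-type, and for Myog (-0.71) and Myod1 (-0.11) in mdx utrn-/- against mdx. In both of these comparisons a dim array was set against a bright and a dim one. With the human gene as a covariate Myf6 was at 0.15 and Ncam1 161750_f_at at 0.10 between the classes. In the dim arrays alone Ncam1 100153_at was at -0.02 between the classes and 0.10 on the deficient backgrounds, and with age as a covariate it was at 0.03 in hDMD mdx against mdx and 0.19 on the deficient backgrounds.

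With each mouse left out, differences crossed 0 between the classes for Ncam1 100153_at (-0.22 to 0.19) and 161750_f_at (-0.19 to 0.11). In mdx against wild-type they did for Myf6 (-0.12 to 0.20), Mef2c 104592_i_at (-0.29 to 0.69), Cdh15 (-0.07 to 0.72) and Ncam1 (-0.28 to 0.54). In hDMD mdx against mdx they did for Myod1 (-0.19 to 0.43), Cdh15 (-0.51 to 0.28) and Ncam1 (-0.93 to 0.46), and on the deficient backgrounds for Myod1 (-0.58 to 0.12), Cdh15 (-0.37 to 0.08) and Ncam1 (-0.47 to 0.33). Myog kept its sign in the class comparison under all alternatives, at 0.70 without mdx utrn-/- and 1.35 without mdx 1. Over all probe sets, the 9 calls of the class comparison became 0 as deposited, 2 with no filter, 2 with a human gene covariate, 1 with a pseudocount of 1, and 2 to 18 with a mouse left out. The 2 calls of mdx utrn-/- against mdx became 6 without the filter and 0 as deposited, with a pseudocount of 1 or with age as a covariate, and 0 to 2 with a mouse left out. On the deficient backgrounds 1 probe set passed with a trend and 4 with the block, and 2 in the utrophin contrast with the block.

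No paired analysis was possible because the labels give no replicate numbers that would pair mice; brightness, a property of the arrays and no pairing of mice, was fitted as a block, under which no member probe set passed. The kept member probe set nearest the floor of 4 was Ncam1 161750_f_at, with a mean of 4.49 and 1 array at the floor.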
